A study of Mus musculus with 4 samples.

Results

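Grb10 and 9 genes tied to it by family, by signalling or by position were measured in mouse embryonic stem cells. They are the Grb7 family of adaptors (Grb10, Grb7 and Grb14), the insulin and IGF receptors (Insr and Igf1r), the insulin receptor substrates (Irs1, Irs2 and Irs4) and the genes flanking Grb10 on chromosome 11 (Ddc and Cobl). The genes were picked by symbol, with earlier results of these libraries known, and Grb10 was picked because its level differed between the lines. Its values are therefore given as a description with no test. All 10 symbols were found among the 54838 gene identifiers of the count tables, and 8 of the 10 passed the filter on low counts, which kept 15191 genes.

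The knock-in cells were the line MLC460, in which CRISPR/Cas9 placed monomeric enhanced green fluorescent protein on the N-terminal end of endogenous p300, a histone acetyltransferase and coactivator. The wild-type cells were unmodified E14 cells (E14Tg2a.4). The strain is 129/Ola, and both lines were kept on gelatin in medium with fetal bovine serum and leukemia inhibitory factor. There were 2 libraries of each line, labelled as biological replicates with no word on separate thaws or cultures, so p-values measure the spread between these libraries. The knock-in is 1 line, so an effect of the tag and a difference that arose when the line was derived cannot be told apart.

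Insulin and the insulin-like growth factors bind receptor tyrosine kinases, which phosphorylate the IRS proteins and so pass the signal to the PI3K, AKT and mTOR steps. Grb10 and Grb14 bind the activated receptors through an SH2 domain and a neighbouring receptor-binding region and restrain them, while Grb7 is better known from ERBB2 signalling and cell migration. Grb10 is imprinted in the mouse: most tissues use the maternal copy from an upstream start, and neurons use the paternal copy from starts further downstream. Mice without the maternal copy are born large.

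The counts cover each gene as a whole and separate neither the starts of Grb10 nor its parental copies. The RefSeq table holds an upstream and a downstream Grb10 promoter, without saying which parental copy uses them. Both are printed from GRCm38.p6, since the counts do not tell them apart, with the first promoters of the flanking genes beside them. Each runs 5′ to 3′ on the minus strand, from 250 bases before to 50 bases after the start, with CG dinucleotides in capitals, a motif that reads the same on both strands.
Grb10 upstream start, chr11:12037371-12037670: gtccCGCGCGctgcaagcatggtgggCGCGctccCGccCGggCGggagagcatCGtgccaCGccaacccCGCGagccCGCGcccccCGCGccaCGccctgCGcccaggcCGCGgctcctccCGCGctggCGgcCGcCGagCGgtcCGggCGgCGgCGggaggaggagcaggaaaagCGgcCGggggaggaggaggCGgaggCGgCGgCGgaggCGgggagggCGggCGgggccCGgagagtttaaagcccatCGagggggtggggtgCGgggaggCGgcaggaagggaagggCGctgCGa
Grb10 downstream start, chr11:12027922-12028221: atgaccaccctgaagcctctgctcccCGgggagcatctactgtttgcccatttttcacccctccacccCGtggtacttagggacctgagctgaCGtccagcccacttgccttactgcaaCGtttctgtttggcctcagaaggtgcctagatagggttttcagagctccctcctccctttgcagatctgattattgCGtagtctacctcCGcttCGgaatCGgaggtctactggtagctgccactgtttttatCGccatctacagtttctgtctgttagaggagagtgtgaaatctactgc
Ddc first start, chr11:11898095-11898394: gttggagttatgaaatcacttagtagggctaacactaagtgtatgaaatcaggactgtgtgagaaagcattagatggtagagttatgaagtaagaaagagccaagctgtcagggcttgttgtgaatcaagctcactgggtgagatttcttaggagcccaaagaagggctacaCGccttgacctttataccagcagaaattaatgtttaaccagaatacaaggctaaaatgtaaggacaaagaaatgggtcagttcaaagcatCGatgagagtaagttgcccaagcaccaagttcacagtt
Cobl first start, chr11:12464911-12465210: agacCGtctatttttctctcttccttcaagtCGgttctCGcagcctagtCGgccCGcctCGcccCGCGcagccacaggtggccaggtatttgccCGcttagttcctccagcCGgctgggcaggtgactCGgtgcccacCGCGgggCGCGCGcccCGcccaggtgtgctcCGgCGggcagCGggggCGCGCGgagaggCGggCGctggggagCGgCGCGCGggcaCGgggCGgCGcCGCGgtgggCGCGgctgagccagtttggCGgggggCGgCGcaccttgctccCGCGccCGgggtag

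The Grb10 starts lie 9449 bases apart and differ in base composition. The upstream window holds 45 CG dinucleotides and is 80.0% G or C, and 1.93% of the 32851 promoters in the table hold at least as many CG. The downstream window holds 9 CG, a number reached by 45.8% of promoters, against a median of 7. The Cobl window, with 42 CG (reached by 3.03% of promoters), is like the upstream Grb10 window in this respect. The Ddc window holds 2 CG, which 85.9% of promoters reach. These are properties of the reference sequence, and no methylation was measured. RefSeq promoters were matched for 8 of the 10 genes, without Grb7 and Insr. Among those not printed, the window of Igf1r held 48 CG, of Irs2 41, of Grb14 30, of Irs1 28 and of Irs4 19.

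Counts assigned to genes totalled 25266051 and 18946731 in the knock-in libraries and 26553998 and 21791128 in the wild-type libraries. Wild-type 2 stood apart from the other libraries. Across 15181 genes, its deviation from their mean rose with transcript GC content (Spearman rho 0.65, genes not being independent replicates), while rho was -0.37 and -0.43 for knock-in 1 and 2 and -0.27 for wild-type 1. Ep300, the tagged gene, had 181 and 210.4 CPM (counts scaled to library size with TMM) in the knock-in libraries and 209.5 and 210.0 CPM in the wild-type libraries. The groups overlapped (log2 fold change of knock-in over wild-type -0.10, SE 0.15, adjusted p = 0.804 in edgeR). With the GC correction that log2 fold change was 0.0074. The counts do not separate tagged from untagged transcripts.

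Grb10 was far higher in knock-in cells, and its relatives in signalling and position were not called. In edgeR's quasi-likelihood test over all 15191 genes, 0 of the 7 other tested genes passed an adjusted p of 0.05 in either direction, against a background of 10 genes or 0.0658%. DESeq2 and limma-voom also called 0 of the 7, against backgrounds of 0.810% and 0.0263%. At an unadjusted p of 0.05 there was 1, Ddc, against 10.9% of all tested genes. The knock-in libraries lay on 1 side of both wild-type libraries for 4 of the 7, with Grb7 and Cobl above and Irs2 and Ddc below, against 47.4% of all tested genes. Exact permutation of 2 against 2 libraries cannot give a two-sided p below 0.333 for a single gene.

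Grb10 (ENSMUSG00000020176, GRCm38 chr11:11930508-12038683, minus strand) was read at high counts in every library. It had 14335 and 11100 reads in the knock-in libraries, against 2957 and 2608 reads in the wild-type libraries. On the CPM scale it stood at 589 and 594 in knock-in cells and at 107 and 118 in wild-type cells. Both knock-in libraries lay far above both wild-type libraries.

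The ratio of the mean CPM of Grb10, knock-in over wild-type, was 5.24, and it lay between 4.97 and 5.53 for every pairing of a knock-in with a wild-type library. The fitted log2 fold change was 2.39 (SE 0.15). The libraries of a line differed little, by 0.014 on the log2 scale in knock-in cells and 0.14 in wild-type cells. In the 18 other settings tried this fold change stayed between 2.28 and 2.56. Per kilobase of exon, 94.8% of tested genes lay below Grb10 in knock-in cells and 74.1% in wild-type cells. Reads on the strand columns were even, and the annotation puts no other gene on the body of Grb10. In bulk RNA, more cells with the transcript and more transcript per cell cannot be told apart.

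Grb7 (ENSMUSG00000019312, chr11:98446394-98455373) encodes the adaptor for which the family is named, and it lies on the same chromosome as Grb10 but far from it. It had 64.0 and 67.9 CPM in the knock-in libraries and 51.25 and 53.7 CPM in the wild-type libraries, with no overlap. The means were 65.9 ± 2.77 CPM in knock-in and 52.5 ± 1.71 CPM in wild-type cells (SD, n = 2 each). The log2 fold change was 0.33 (SE 0.15, 95% interval -0.019 to 0.68, adjusted p = 0.466 in edgeR), so it did not pass with all libraries.

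The call on Grb7 depended on the treatment of the GC trend. With the GC correction its log2 fold change was 0.55 (adjusted p = 0.0335 in edgeR), where 1.19% of all genes passed. Without wild-type 1 it was 0.30 (adjusted p = 0.0416), where 32.1% of all genes passed, and without wild-type 2 it was 0.35 (adjusted p = 0.0671). It was positive in all 18 other settings and passed in 6 of them, with adjusted p from 0.000162 to 1.0.

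Grb14 (ENSMUSG00000026888, chr2:64912476-65024987), the third adaptor of the family, was barely read. It had 23 and 23 reads in the knock-in libraries and 33 and 26 reads in the wild-type libraries, which is 0.944 and 1.23 CPM against 1.20 and 1.18 CPM. The wild-type values fell between the knock-in values. The strand columns held 2 and 21 reads in knock-in 2, an uneven split, against 15 and 8 in knock-in 1. They held 18 and 15 reads in wild-type 1 and 14 and 12 in wild-type 2. The log2 fold change was -0.14 (SE 0.39, adjusted p = 0.907 in edgeR). Its 95% interval ran from -1.03 to 0.75.

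Levels of different genes were compared per kilobase of exon, with length taken over all annotated transcripts of a gene, whichever are expressed. The adaptors together stood at 83.9 and 85.7 CPM per kb in the knock-in libraries. In the wild-type libraries they stood at 27.2 and 29.1 CPM per kb. Grb10 made up 77.2% and 76.3% of that sum in knock-in cells, against 43.4% and 44.7% in wild-type cells. On this scale Grb7 stood above Grb10 in wild-type cells, where the ratio of Grb10 to Grb7 was 0.776 and 0.817. That order rests on the exon lengths, 9089 bases for Grb10 and 3365 for Grb7. Without them Grb10 was higher in wild-type cells, at a mean of 112.9 CPM against 52.5 CPM. In knock-in cells the ratio of Grb10 to Grb7 per kilobase was 3.41 and 3.24. Grb14 stood at or below 0.171 CPM per kb in every library. Since Grb10 was chosen for its difference, these shares describe the libraries and are not tested.

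**Figure D1:**
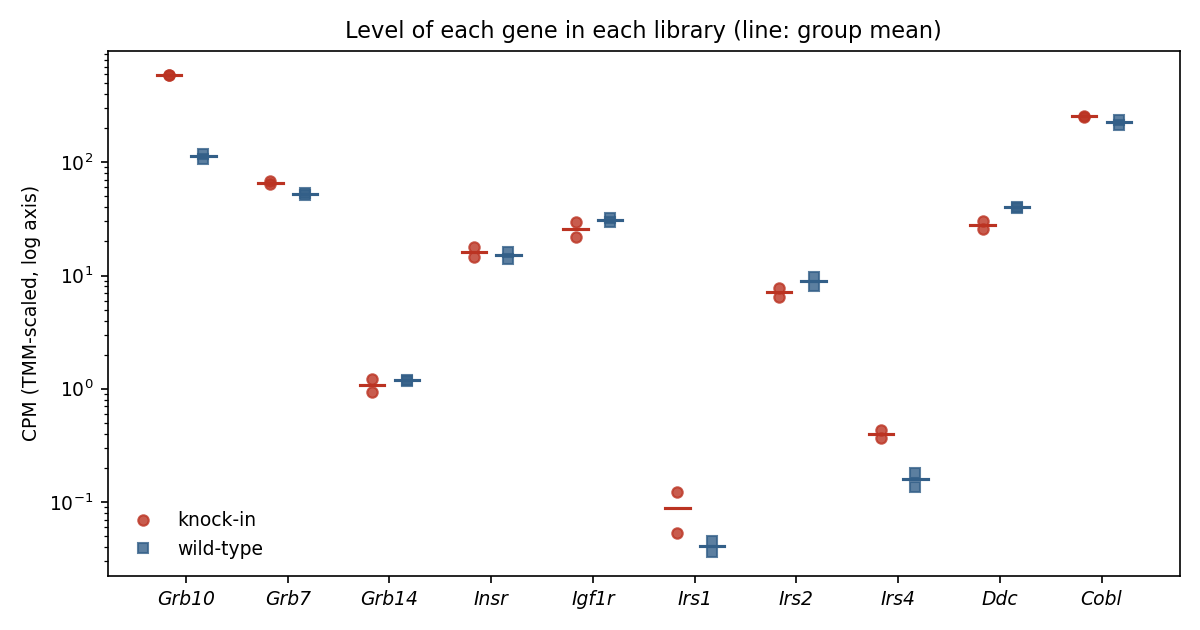
Level of the 10 genes in each library, as TMM-scaled CPM on a log axis, with knock-in libraries as circles left of wild-type libraries as squares and a line at each group mean. Grb10 is at 589 and 594 CPM in knock-in against 107 and 118 CPM in wild-type libraries, while the points of Insr, Igf1r and Grb14 overlap between the lines.

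The receptors were expressed at modest levels in both lines. Insr (ENSMUSG00000005534, chr8:3122061-3279617), the insulin receptor, had 14.6 and 17.9 CPM in the knock-in libraries and 16.1 and 14.0 CPM in the wild-type libraries. The groups overlapped, and the log2 fold change was 0.11 (SE 0.20, 95% interval -0.34 to 0.55, adjusted p = 0.852 in edgeR). Its sign turned when wild-type 2 or knock-in 2 was left out. Igf1r (ENSMUSG00000005533, chr7:67952827-68233668), which binds IGF1 and IGF2, had 21.9 and 29.7 CPM in the knock-in libraries and 32.4 and 29.6 CPM in the wild-type libraries. Knock-in 1 was the low library, and knock-in 2 lay between the wild-type libraries.

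The log2 fold change of Igf1r was -0.26 (SE 0.20, 95% interval -0.70 to 0.18, adjusted p = 0.601 in edgeR). It was -0.079 without knock-in 1 and -0.49 without knock-in 2. Per kilobase the receptors summed to 2.37 and 3.07 CPM per kb in knock-in cells and to 3.10 and 2.78 CPM per kb in wild-type cells, which overlap. The ratio of Igf1r to Insr was 1.23 and 1.36 in the knock-in libraries and 1.64 and 1.72 in the wild-type libraries, lower in both knock-in libraries. The ratio of Grb10 to the receptor sum was 27.4 and 21.3 in knock-in cells, against 3.81 and 4.69 in wild-type cells.

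Of the receptor substrates, Irs2 carried nearly all the reads. Irs2 (ENSMUSG00000038894, chr8:10984681-11008458), a docking protein for PI3K, had 7.72 and 6.48 CPM in the knock-in libraries and 8.06 and 9.72 CPM in the wild-type libraries. Both knock-in libraries lay below both wild-type libraries. The log2 fold change was -0.32 (SE 0.22, 95% interval -0.83 to 0.19, adjusted p = 0.585 in edgeR), and it was -0.087 with the GC correction.

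Irs1 and Irs4 were at or near the limit of detection and below the filter on low counts. Irs1 (ENSMUSG00000055980, chr1:82233101-82291416), the main substrate in muscle, had 3 and 1 reads in the knock-in libraries and 1 and 1 reads in the wild-type libraries. Irs4 (ENSMUSG00000054667, chrX:141710998-141725263) had 9 and 8 reads in the knock-in libraries and 5 and 3 reads in the wild-type libraries. A count of 0 allows up to 3 reads, which is 0.123 and 0.161 CPM in the knock-in libraries and 0.109 and 0.136 CPM in the wild-type libraries, for counting error only.

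Irs2 made up 94.4% and 93.3% of the summed substrate level per kilobase in knock-in cells, against 97.5% and 98.3% in wild-type cells. Over all genes the strand columns of the tables split evenly. The few reads of Irs4 did not, with 6 and 3 in knock-in 1 and 7 and 1 in knock-in 2. In wild-type 1 they were 5 and 0, and in wild-type 2 they were 2 and 1. Each substrate gene shares exon bases with a gene on the other strand: 30.9% of its exon bases for Irs1, 6.09% for Irs4 and 2.56% for Irs2. Reads from the gene and from its partner cannot be told apart there, and the tables list reads that are ambiguous between genes in a row of their own.

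In knock-in cells the order of levels per kilobase was Grb10, Cobl, Grb7, Ddc, Igf1r, Insr, Irs2, Grb14, Irs4 and Irs1. The libraries of neighbouring genes in that order overlapped for Insr and Irs2 (means of 1.18 and 1.12 CPM per kb). In wild-type cells Cobl stood highest at 27.7 CPM per kb, followed by Grb7 at 15.6, Grb10 at 12.4 and Ddc at 8.98, and no neighbours overlapped. On this scale Grb10 was thus first in knock-in cells, at 65.1 CPM per kb, and behind Cobl and Grb7 in wild-type cells. Irs2 ranked above Insr per kilobase in wild-type cells.

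The neighbourhood of Grb10 held few expressed genes. The annotation places 24 genes within 1 Mb of it: 13 had 0 reads in all libraries, 6 had at most 8 reads in any library and fell below the filter, and 5 were tested. With all libraries 0 of the 5 passed in edgeR or limma-voom, DESeq2 called 0 of the 4 to which it gave an adjusted p (not Ikzf1), and Ddc and Fignl1 had an unadjusted p below 0.05 in edgeR, against 10.9% of all tested genes. The 5 are Ikzf1, Fignl1, Ddc and Cobl, and a model-name antisense gene inside Ddc that the naming rule only counts.

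Ddc (ENSMUSG00000020182, chr11:11814101-11898144) encodes aromatic L-amino acid decarboxylase, which makes dopamine and serotonin, and it is reported to be imprinted in the mouse heart. It begins 32.4 kb beyond the 3′ end of Grb10. It had 30.6 and 25.8 CPM in the knock-in libraries and 40.6 and 39.5 CPM in the wild-type libraries, both knock-in libraries lying below. The log2 fold change was -0.51 (SE 0.17, 95% interval -0.89 to -0.12), opposite in sign to Grb10.

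With all libraries Ddc did not pass (adjusted p = 0.378 in edgeR). It passed without wild-type 1 (log2 fold change -0.48, adjusted p = 0.00164) and without wild-type 2 (-0.54, adjusted p = 0.00214), where 32.1% and 4.39% of all genes passed. With the GC correction it was -0.47 (adjusted p = 0.0997). Its sign was negative in all 18 other settings, 3 of which called it, with adjusted p from 0.00164 to 1.0.

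Cobl (ENSMUSG00000020173, chr11:12236608-12464960) encodes cordon-bleu, an actin nucleator, and lies 198 kb upstream of Grb10. It had 258.5 and 253.5 CPM in the knock-in libraries and 238 and 212 CPM in the wild-type libraries. Knock-in libraries were higher without overlap, and the log2 fold change was 0.18 (SE 0.14, 95% interval -0.14 to 0.51, adjusted p = 0.621 in edgeR). Without wild-type 1 it was 0.27 (adjusted p = 0.0406), the 1 setting of 18 in which it passed. The ratio of Grb10 to Cobl per kilobase was 2.04 and 2.10 in knock-in cells and 0.404 and 0.499 in wild-type cells.

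Farther along, Fignl1 (chr11:11787431-11808962), an AAA ATPase of homologous recombination, had 135 and 128 CPM in the knock-in libraries and 114 and 85.5 CPM in the wild-type libraries. Its log2 fold change was 0.40 (SE 0.17, adjusted p = 0.450 in edgeR). It was 0.62 (adjusted p = 4.85e-07) without wild-type 1 and 0.19 with the GC correction. Ikzf1 (chr11:11685003-11772926), a lymphoid transcription factor gene, had 11 and 14 reads in the knock-in libraries and 19 and 4 reads in the wild-type libraries (log2 fold change 0.38, SE 0.66, adjusted p = 0.838 in edgeR).

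**Figure D2:**
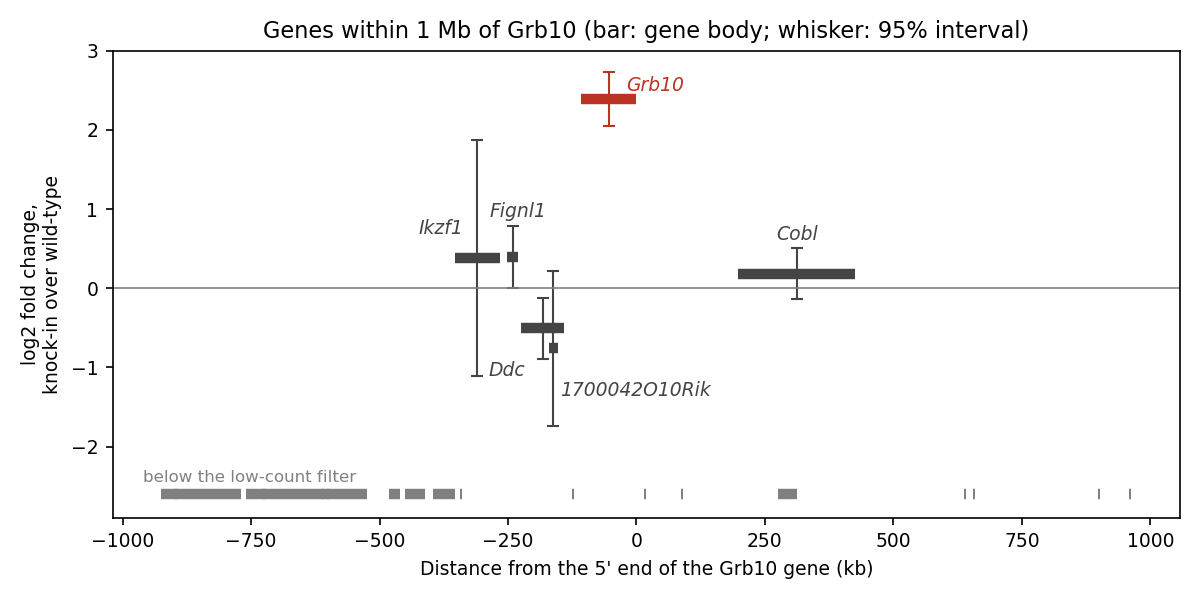
Log2 fold change of the tested genes within 1 Mb of Grb10 (y axis) by distance in kb from the 5′ end of Grb10 (x axis, negative towards its 3′ end), with bars for gene bodies, whiskers for the 95% interval and grey bars for genes below the filter. Grb10 stands alone at 2.39, while Ddc at -0.51 and Cobl at 0.18 lie on either side of it, the interval of Ddc below 0.

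**Figure D3:**
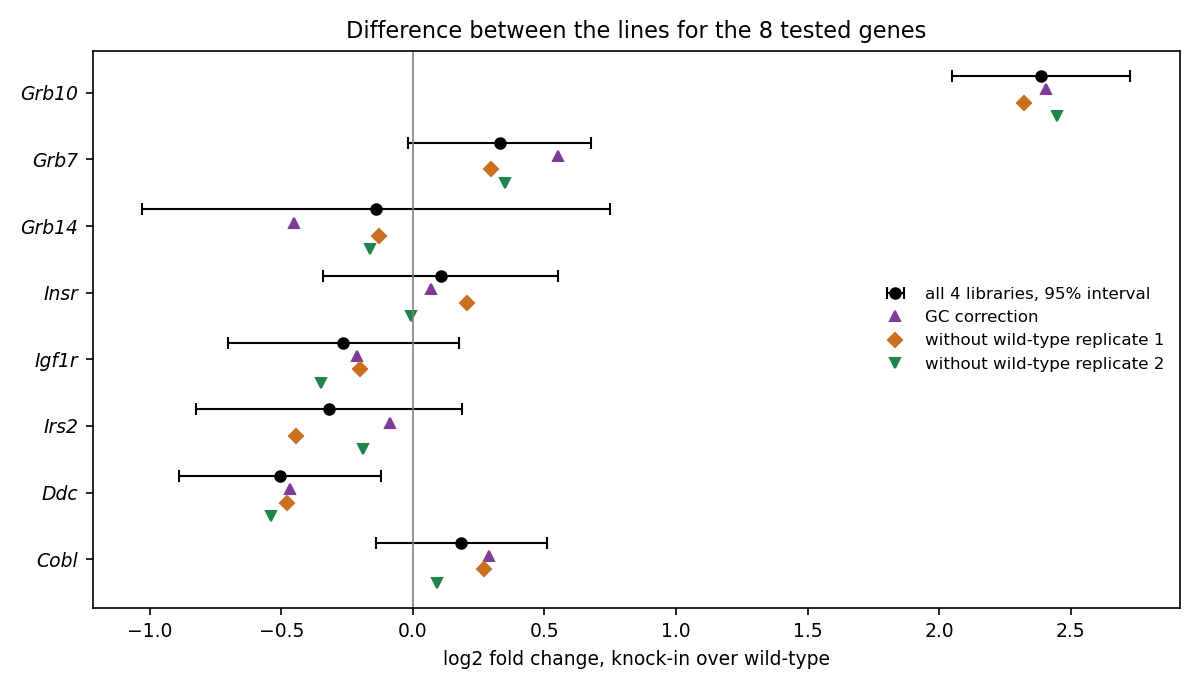
Log2 fold change of knock-in over wild-type for the 8 tested genes with all libraries (black, 95% interval) and under 3 other settings (coloured). Grb10 is near 2.39 under each, and the sign of every gene but Insr is the same under each. Apart from Grb10 and Ddc, every gene has an interval that includes 0.

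The other genes of the pathway were described as lists, none of which held a gene that passed with all libraries in edgeR. Over all 15191 tested genes the median log2 fold change was 0.00098, and 50.1% of genes were above 0. Of the insulin and IGF ligands and binding proteins, 8 of 14 were tested and 0 of the 8 were above 0, with log2 fold changes from -1.78 (Igfbp7) to -0.12 (Igfbp3) and a median of -0.40. In 6 of the 8 both knock-in libraries lay below both wild-type libraries, against 23.9% of all tested genes. The median was -0.19 with the GC correction and -0.21 without wild-type 2.

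At an unadjusted p of 0.05, 2 of the 8 were lower, against 7.40% of all tested genes. DESeq2 called 1 of them lower, against 0.764% of all tested genes, and limma-voom 0. Igfbp2, the most abundant IGF binding protein here, had 547 and 496 CPM in the knock-in libraries and 597 and 734 CPM in the wild-type libraries (log2 fold change -0.35, SE 0.16, adjusted p = 0.459 in edgeR). It was -0.49 (adjusted p = 5.36e-05) without wild-type 1, -0.21 without wild-type 2 and -0.089 with the GC correction. Igf2r, the receptor that clears IGF2, had 160.3 and 183 CPM in the knock-in libraries and 196 and 200.4 CPM in the wild-type libraries (-0.21, SE 0.15, adjusted p = 0.583).

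Igfbp4 and Igfbp7, binding proteins of IGFs and named after their values were seen, were the 2 at an unadjusted p of 0.05. Igfbp4 had 10.7 and 10.9 CPM in the knock-in libraries and 20.9 and 21.7 CPM in the wild-type libraries. Its log2 fold change stood at -0.98 (SE 0.18, adjusted p = 0.135 in edgeR). It passed in 11 of the 18 other settings, among them the GC correction (adjusted p = 0.0187), DESeq2 (0.00678) and the fits without wild-type 1 or wild-type 2, and its adjusted p ran from 1.15e-08 to 0.662. Igfbp7 was near the filter, with 0.903 and 0.482 CPM in knock-in and 1.85 and 3.09 CPM in wild-type libraries (-1.78, SE 0.45, adjusted p = 0.232). It passed in 6 of the 17 other settings that kept it, with adjusted p from 8.15e-05 to 0.640.

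The ligands themselves were close to absent, and none was among the tested genes. Ins1, Ins2 and Igfbp1 had 0 reads in all 4 libraries. Igf1 had 3 and 2 reads in the knock-in libraries and 0 in both wild-type libraries, and Igf2 had 2 and 0 reads in knock-in and 1 and 2 reads in wild-type libraries. Insrr, a receptor related to Insr, had 3 and 0 reads in knock-in and 16 and 7 reads in wild-type libraries.

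The PI3K, AKT, mTOR and RAS steps below the receptor were all expressed, and 30 of 30 genes were tested. Their median log2 fold change was 0.035, 16 of 30 were above 0, and values ran from -0.45 (Foxo3) to 0.42 (Rheb). Foxo3 and Rheb alone had an unadjusted p below 0.05 in edgeR, against 10.9% of all tested genes. Both knock-in libraries lay above both wild-type libraries in 6 of the 30 and below in 4, against 23.4% and 23.9% of all tested genes. DESeq2 and limma-voom called 0, and the median without wild-type 1 was 0.038. Gab1, a docking protein, had 399 and 392 CPM in the knock-in libraries and 379 and 383 CPM in the wild-type libraries (log2 fold change 0.055, SE 0.14, adjusted p = 0.896 in edgeR). Eif4ebp1, the translation repressor that mTOR phosphorylates, had 488 and 424 CPM in knock-in and 451 and 644.5 CPM in wild-type libraries (-0.27, SE 0.19, adjusted p = 0.589), with wild-type 2 highest. Without wild-type 1 it was -0.498 (adjusted p = 3.82e-05), and without wild-type 2 it was 0.0011.

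Grb10 binding partners and other inhibitors of the receptors were likewise tested in full, 14 of 14, with a median of -0.086 and 6 above 0. That median was 0.11 with the GC correction, -0.17 without wild-type 1 and -0.0054 without wild-type 2. Without wild-type 1, 8 of the 14 passed, 4 on each side of 0, in the fit that called 32.1% of all genes. With all libraries only Socs1 (-0.82) had an unadjusted p below 0.05, against 10.9% of all tested genes, and DESeq2 and limma-voom called 0. Both knock-in libraries lay above both wild-type libraries in 1 of the 14 and below in 2, against 23.4% and 23.9% of all tested genes. Nedd4, the ubiquitin ligase that acts with Grb10 on the IGF1 receptor, was the most abundant. It had 1988 and 2037 CPM in the knock-in libraries and 1737 and 1497 CPM in the wild-type libraries, without overlap (log2 fold change 0.32, SE 0.15, adjusted p = 0.468 in edgeR). Without wild-type 1 it was 0.43 and passed (adjusted p = 0.00173), and without wild-type 2 it was 0.20. Gigyf1 and Gigyf2, named for their binding to Grb10, had log2 fold changes of 0.091 and 0.17. Socs3, a feedback inhibitor, had 311 and 295 CPM in knock-in and 294 and 327 CPM in wild-type libraries (-0.036, SE 0.14, adjusted p = 0.937), and its sign was positive with the GC correction.

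Of receptor tyrosine kinases that bind Grb7, Grb10 or Grb14, 11 of 12 were tested, with a median of -0.23 and 1 above 0. In 8 of the 11 both knock-in libraries lay below both wild-type libraries, against 23.9% of all tested genes. Erbb3 (-0.39) and Pdgfrb (-0.88) had an unadjusted p below 0.05, against 7.40% of all tested genes that were lower at that p, and DESeq2 and limma-voom called 0. Kit, the stem cell factor receptor, had 142.5 and 162 CPM in the knock-in libraries and 185 and 166 CPM in the wild-type libraries (log2 fold change -0.20, SE 0.15, adjusted p = 0.606 in edgeR). Fgfr1 had 102 and 100.2 CPM in knock-in and 108 and 133 CPM in wild-type libraries (-0.26, SE 0.16, adjusted p = 0.543), and its value was -0.40 (adjusted p = 0.00131) without wild-type 1 and -0.041 with the GC correction. Erbb2, the partner of Grb7 in signalling, stood at 19.1 and 22.1 CPM in knock-in and 23.7 and 31.7 CPM in wild-type libraries (-0.43, SE 0.20, adjusted p = 0.466). Without wild-type 2, 3 of these kinases passed as lower, as did 3.68% of all genes in that fit, and without wild-type 1 the count was 4, against 13.1%.

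FOXO-responsive genes, which rise when AKT is less active, were tested for 12 of 15, with a median of -0.059 and 4 above 0. The median was 0.033 without wild-type 1 and -0.28 without wild-type 2. With all libraries Bcl6 (-0.54) alone had an unadjusted p below 0.05, against 10.9% of all tested genes, and DESeq2 and limma-voom called 0. Both knock-in libraries lay above both wild-type libraries in 2 of the 12 and below in 4, against 23.4% and 23.9% of all tested genes. Sod2, a mitochondrial superoxide dismutase, had 251 and 227 CPM in the knock-in libraries and 206 and 259 CPM in the wild-type libraries, which overlap (log2 fold change 0.040, SE 0.16, adjusted p = 0.939 in edgeR), and it was -0.22 with the GC correction and 0.062 when that used the GC content of all transcripts. Cat, which encodes catalase, had 143 and 129 CPM in knock-in and 125.5 and 124.9 CPM in wild-type libraries (0.12, SE 0.15, adjusted p = 0.767).

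**Figure D4:**
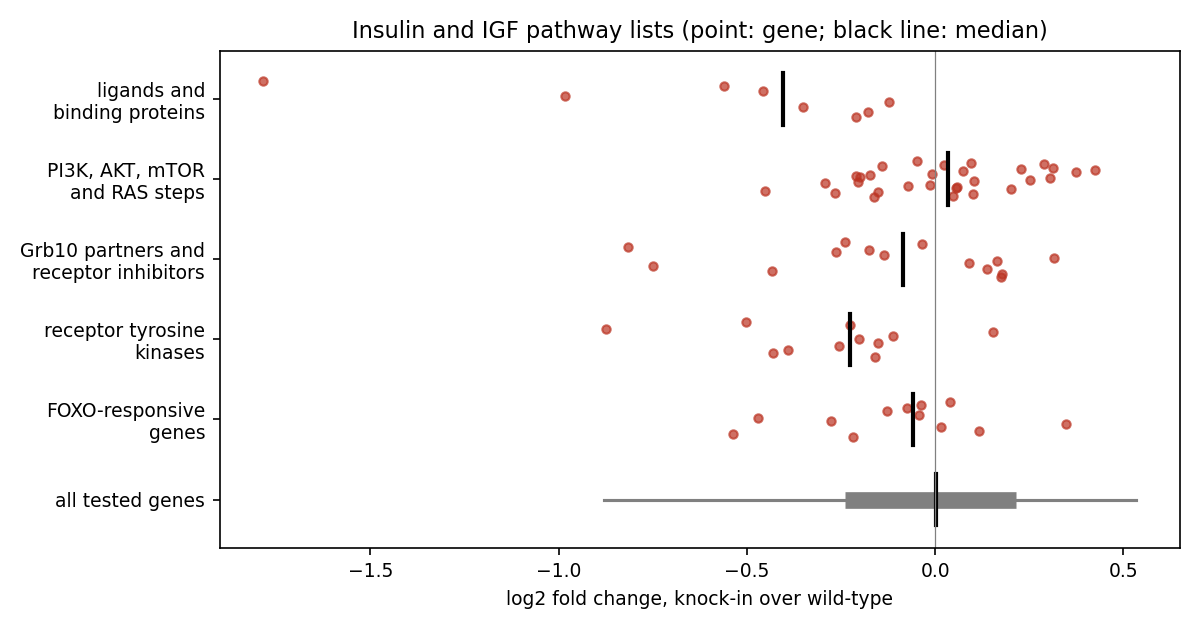
Log2 fold change of knock-in over wild-type for each tested gene of the 5 pathway lists (points) with list medians (black), above a bar for all tested genes that spans the quartiles and a line from percentile 5 to 95. The points of the ligand and binding protein list, none of which is a ligand, all lie below 0 with a median of -0.40. The points of the PI3K, AKT, mTOR and RAS steps lie around 0.035.

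The cells carried the markers of embryonic stem cells in both lines. Summed over 10 markers, the level was 7085 and 6745 CPM in the knock-in libraries and 6570 and 6431 CPM in the wild-type libraries. The log2 fold change was above 0 for 7 of the 10, against 50.1% of all tested genes. Pou5f1 (-0.15), Sox2 (-0.0010) and Nanog (-0.075) were below 0. Fibroblast and feeder markers summed to 23.4 and 24.9 CPM in knock-in and 37.1 and 40.6 CPM in wild-type cells, with Lum at 0 and Col3a1, Postn and Dcn below the filter. Their 5 tested members were all below 0, and Pdgfrb is on both this list and that of the kinases. Primitive endoderm markers summed to 231 and 254 CPM in knock-in and 385 and 425 CPM in wild-type cells, with Sox17 and Foxa2 below the filter. The lower sum came from Lama1, Col4a1 and Col4a2, while the groups overlapped for the other tested members, of which Gata4 (0.22) and Pdgfra (0.15) were above 0.

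Trophoblast markers summed to 59.4 and 57.4 CPM in knock-in and 50.9 and 50.8 CPM in wild-type cells, with Cdx2, Elf5 and Gata3 below the filter. Tfap2c carried most of that sum (47.4 and 44.7 CPM in knock-in, 34.2 and 34.9 CPM in wild-type libraries). Of the other tested markers Hand1 (0.54) was above 0, while Eomes (-0.49), Ascl2 (-0.51) and Krt7 (-1.21) were below 0. Mesoderm markers summed to 3.20 and 2.68 CPM in knock-in and 3.27 and 3.50 CPM in wild-type cells, with Msgn1, Foxf1 and Hand2 at 0. Neuroectoderm markers summed to 165 and 153 CPM in knock-in and 153 and 237 CPM in wild-type cells. Tubb3 (-0.33) carried most of that sum, with 133 and 122 CPM in knock-in and 117 and 204.5 CPM in wild-type libraries. Of the other tested neuroectoderm markers Sox1 (0.13), Pax6 (0.47) and Map2 (0.29) were above 0, while Nes (-0.28) was below 0. In edgeR 0 markers of the 6 lists passed, against 0.0658% of all tested genes. DESeq2 called 2 of the 8 tested primitive endoderm genes lower, Col4a1 and Col4a2, against 0.764% of all tested genes. The part of these cell type markers in the values of Grb10, Grb7, Ddc and the binding proteins was not tested.

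The genes most like Grb10 in pattern were sought among 12154 tested genes with a mean of at least 1 CPM. The measure was the root mean square distance between log2 CPM profiles over the 4 libraries, each centred on its own mean, and the median distance was 1.2. On that scale Grb10 stood at 1.19 and 1.20 in the knock-in libraries and at -1.27 and -1.12 in the wild-type libraries. The nearest profiles were those of Ankrd33b at a distance of 0.537, Wt1 at 0.568, Patl2 at 0.669, Wdr5b at 0.677 and Sycp3 at 0.693.

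None of these genes had a difference as large as that of Grb10. Ankrd33b, which encodes an ankyrin repeat protein, had 38.6 and 34.3 CPM in the knock-in libraries and 12.1 and 16.8 CPM in the wild-type libraries, a log2 fold change of 1.34. Sycp3, which encodes a protein of the meiotic synaptonemal complex, had 6.57 and 7.01 CPM in knock-in and 3.99 and 1.95 CPM in wild-type libraries, a log2 fold change of 1.17. It was 1.80 without wild-type 1, 0.72 with the GC correction and 0.75 without wild-type 2. The zinc finger gene Wt1 had a log2 fold change of 1.30 (SE 0.38), Patl2 of 1.06 (SE 0.24) and Wdr5b of 1.05 (SE 0.37). Wt1 had few reads, 53 and 32 in the knock-in libraries and 20 and 19 in the wild-type libraries. Wdr5b likewise had 48 and 32 reads in knock-in and 24 and 20 reads in wild-type libraries. Chosen by their pattern, these nearest genes are described without a test. The other tested genes of the group were at distances from 1.03 (Grb7) to 1.46 (Ddc), and Irs1 and Irs4, below the filter, were not compared.

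**Figure D5:**
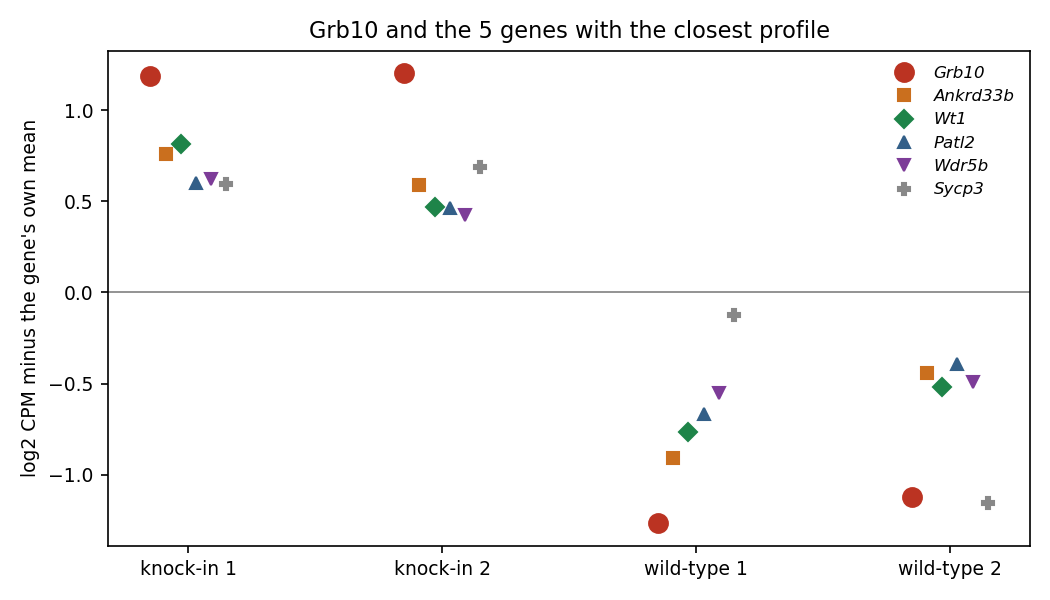
Log2 CPM minus the gene's own mean (y axis) in each library (x axis) for Grb10 and the 5 genes nearest to it in profile. All points are above 0 in both knock-in libraries and below 0 in both wild-type libraries, and Grb10 is farthest from 0 in every library except wild-type 2, where Sycp3 is at -1.16.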

How the data were processed

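RNA was taken up in Trizol and made into libraries from total RNA with an Illumina TruSeq kit, per the labels' protocols. The authors deposited raw counts of reads per gene, made with Trim Galore and STAR 2.5.3a on GRCm38 (mm10), per the submitters' processing notes. The annotation release is not given in the sources used here, and 54809 of 54838 identifiers matched GENCODE M21, which supplied symbols, coordinates and exon lengths. The unstranded column was used, since the second-strand column held 50.2% to 50.5% of stranded counts. Summary rows stayed out of library sizes: unmapped reads were 2.38% to 4.39% of reads, multimapping 3.80% to 4.46%, outside genes 2.23% to 3.67% and ambiguous 5.96% to 6.38%. Reads that fit several gene copies were therefore not assigned.

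One fit over all genes used edgeR 4.0.16 in R 4.3.3 (TMM, filterByExpr with a minimum count of 10, genotype alone, quasi-likelihood F test, Benjamini-Hochberg adjustment, threshold 0.05). It was tested on simulated data. Standard errors come from F, as the size of the log2 fold change over the root of F. Alternatives were other size factors, no filter, a filter of 1 CPM in every library, DESeq2 1.42.0, limma-voom (limma 3.58.1), a replicate block, leaving out each library, and a GC correction: a natural spline (5 degrees of freedom) of each library's deviation on GC content of the longest transcript, used as an offset. A crossed block and a GC correction over all transcripts were chosen after seeing the data.

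The genes, lists and marker lists were chosen with earlier results of these data known. From each list the rule named up to 4 genes past the threshold or, with none, the 2 with the highest mean CPM. Genes named for an unadjusted p or the end of a range, and Erbb2, Gigyf1, Gigyf2, Igfbp4, Igfbp7 and those below the filter, were named after their values were seen.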

Additional observations from a re-analysis of the deposited data

How the results depend on the processing

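Grb10 was higher in knock-in libraries in every one of the 18 other settings, with a log2 fold change of 2.39 under the replicate block. Its lowest and highest values came with the GC correction when wild-type 1 (2.28) or wild-type 2 (2.56) was also left out. Of the 7 other tested genes, 0 passed with all libraries or under the replicate block. With the GC correction, alone, with the block or over all transcripts, 1 passed. Leaving out a library gave 0 to 3, and 0 to 2 with the GC correction. Among all genes 10 passed, against 354 without the filter, 197 with the replicate block, 123 in DESeq2, 4 in limma-voom, 180 with the GC correction, 407 with that and the block, and 304 with GC over all transcripts. Leaving out a library gave 16 to 5015, and with the GC correction as well 1567 (wild-type 1), 648 (wild-type 2), 94 (knock-in 1) and 63 (knock-in 2). A fit without a library takes the spread of the lone library's group from the other pair. The replicate numbers were not shown to pair the libraries (correlation of deviations across 15191 genes -0.12), and a crossed block gave 509 genes. Under the replicate block Igfbp4 (adjusted p = 0.0137) and Igfbp7 (0.0256) passed in edgeR, as did the markers Col4a1 and Col4a2. Leaving aside Ankrd33b, Patl2 and Sycp3, chosen by their pattern and not tested, the block changed no other call on a named gene.

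Some fold changes on the log2 scale turned in sign, and the cause was not tested. With the GC correction Socs3 was 0.21, Sod2 -0.22 and Ep300 0.0074, with the block as well they were 0.2101, -0.16 and 0.0045, and with GC over all transcripts Socs3 was 0.22, Sod2 0.062 and Ep300 -0.065. Leaving out a library in turn gave -0.33 to 0.030 for Grb14, -0.046 to 0.23 for Insr, -0.24 to 1.67 for Ikzf1, -0.498 to 0.0011 for Eif4ebp1, -0.11 to 0.030 for Socs3 and -0.11 to 0.20 for Sod2. With the GC correction, leaving out wild-type 1 turned Socs3 (0.26), Sod2 (-0.57) and Ep300 (0.0053). Leaving out wild-type 2 turned Ikzf1 (-0.14), Eif4ebp1 (0.11), Socs3 (0.18), Fgfr1 (0.038) and Ep300 (0.025). Leaving out knock-in 1 turned Socs3 (0.17), Sod2 (-0.32) and Ep300 (0.10), and leaving out knock-in 2 turned Insr (-0.047), Irs2 (0.057), Socs3 (0.27), Fgfr1 (0.0029) and Sod2 (-0.11). Low counts limit Grb14, Irs1, Irs4, Ikzf1, Wt1 and Wdr5b.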
